A study of Mus musculus with 16 samples.

Results

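The comparison described here is that of CD8 T cells taken from entinostat-treated tumours at day 17 with the same kind of sample at day 10, 4 libraries against 4, out of the 16 libraries of the series. Attention was restricted to genes whose mean level over these 8 libraries was at least 16 CPM, counts scaled to a common library total, which left 9962 of the 24028 genes in the count table. Both groups came from BALB/c mice injected with TS/A cells, a mouse mammary adenocarcinoma line, in the second mammary pad. Both received entinostat at 20 mg/kg each day from day 7 after injection, so that the drug had been given for 3 days in one group and for 10 days in the other. Tumour age and drug time therefore changed together, and the 8 vehicle libraries of the same days, 4 for each day, were the only measure of tumour age alone. The sort kept Live/Dead-negative, CD45.2+, CD8+, CD4- cells, and the mice's age is not given in the sources used here. Whether each library was made from its own animal is not stated in the labels. The p-values below therefore reflect how far these samples scatter, and part of that scatter may be technical.

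Entinostat inhibits class I histone deacetylases (HDACs), enzymes that remove acetyl groups from histones and other proteins and thereby change which genes are transcribed. A CD8 T cell that meets antigen leaves a quiescent state held by factors such as Tcf7, Foxo1 and Klf family members, divides, switches to a glycolytic metabolism and loads granules with perforin and granzymes. In tumours, continued antigen exposure also brings inhibitory receptors such as PD-1 and TIM-3 to the surface, and interferon signalling adds a broad set of antiviral and antigen presentation genes.

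The promoters below belong to genes of the groups that moved together between the days, and are shown because each holds letters of a motif known for its group. In each group they are the called genes of smallest p whose window held the letters and lay outside the gene's annotated bounds. The windows are the 250 bases before the annotated start, read 5′ to 3′ on the gene's strand, from RefSeq on GRCm38.p6, with the matches in capitals. Mcm6, a subunit of the replicative helicase, and Rfc3, a subunit of the clamp loader, rose and hold the E2F letters TTTGGCGC or TTTCGCGC, on either strand, with overlapping matches in Mcm6. The Mcm6 window is chr1:128359706-128359955 on the minus strand and the Rfc3 window chr5:151651209-151651458 on the minus strand.
Mcm6: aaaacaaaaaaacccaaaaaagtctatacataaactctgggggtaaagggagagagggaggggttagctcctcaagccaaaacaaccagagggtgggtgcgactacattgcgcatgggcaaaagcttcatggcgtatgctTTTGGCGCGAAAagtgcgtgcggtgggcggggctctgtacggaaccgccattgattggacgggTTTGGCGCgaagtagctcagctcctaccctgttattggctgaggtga
Rfc3: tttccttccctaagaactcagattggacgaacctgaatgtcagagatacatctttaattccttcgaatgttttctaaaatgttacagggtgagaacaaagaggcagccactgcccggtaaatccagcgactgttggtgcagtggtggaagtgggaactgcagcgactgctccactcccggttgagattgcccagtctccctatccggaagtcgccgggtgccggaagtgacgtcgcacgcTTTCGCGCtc

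Cdk1, the kinase that drives entry into mitosis, and Smc2, a condensin subunit, rose and hold the cell cycle homology region letters TTTGAA and the NF-Y letters CCAAT, on either strand. The Cdk1 window is chr10:69352913-69353162 on the minus strand and the Smc2 window chr4:52438971-52439220 on the plus strand.
Cdk1: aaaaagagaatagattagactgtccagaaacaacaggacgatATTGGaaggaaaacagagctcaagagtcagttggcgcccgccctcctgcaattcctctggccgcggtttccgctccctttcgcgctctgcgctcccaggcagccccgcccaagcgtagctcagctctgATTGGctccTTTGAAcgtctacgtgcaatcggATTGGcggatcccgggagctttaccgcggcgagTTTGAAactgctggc
Smc2: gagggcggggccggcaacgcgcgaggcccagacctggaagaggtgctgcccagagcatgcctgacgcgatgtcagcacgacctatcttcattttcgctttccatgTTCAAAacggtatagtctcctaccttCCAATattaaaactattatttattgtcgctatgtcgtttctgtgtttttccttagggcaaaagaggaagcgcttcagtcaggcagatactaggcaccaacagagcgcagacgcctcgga

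Ifit1, an antiviral protein induced by type I interferon, and Tgtp1, a GTPase induced by interferon gamma, fell and hold the core of the interferon-stimulated response element, GAAANNGAAA, on either strand. The Ifit1 window is chr19:34640639-34640888 on the plus strand and the Tgtp1 window chr11:48992247-48992496 on the minus strand.
Ifit1: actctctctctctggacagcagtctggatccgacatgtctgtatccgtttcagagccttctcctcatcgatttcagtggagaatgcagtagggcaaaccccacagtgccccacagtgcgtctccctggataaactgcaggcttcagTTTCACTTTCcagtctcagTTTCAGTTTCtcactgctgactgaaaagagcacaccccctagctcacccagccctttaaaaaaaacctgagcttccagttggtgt
Tgtp1: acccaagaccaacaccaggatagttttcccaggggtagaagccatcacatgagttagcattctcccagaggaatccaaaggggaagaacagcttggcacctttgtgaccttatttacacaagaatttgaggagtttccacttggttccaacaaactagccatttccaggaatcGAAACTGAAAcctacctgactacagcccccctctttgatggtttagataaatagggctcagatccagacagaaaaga

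Total counts of the entinostat libraries ran from 2639019 to 5709243 at day 10 and from 554593 to 3530961 at day 17. A pair of libraries stood apart. Entinostat day 10 replicate 4 was the deepest and had 595 CPM in genes of olfactory and vomeronasal receptors, silent in lymphocytes, where the other 7 had 3346 to 6319 CPM. By library total alone it had 583 CPM of these genes. On that scale the vehicle libraries had 580 to 1855 CPM at day 10 and 634 to 5274 CPM at day 17. Entinostat day 17 replicate 3 was the shallowest. Counts of the abundant gene Actb did not move in step with depth, there or in the other 7 libraries. Actb had 1618 counts in that library, at a total of 554593, and 2415 to 3081 in the other 7. Day 10 replicate 1 had 2415 at a total of 2639019, and day 10 replicate 4 had 3081 at 5709243. The level of Actb in CPM was thus highest in the shallowest library and lowest in the deepest. The 100 most abundant genes of a library held 9.16% of its counts in the shallowest library and 5.82% in the deepest. They held 6.35% to 7.33% in the remaining entinostat libraries. How far this bears on the fold changes was not tested. No 2 libraries of a group agreed within sampling noise (chi-square per degree of freedom 3.62 to 18.6). On the first principal component, with 48.2% of the variance of log2 CPM, the day 10 libraries lay at 11.5 to 62.3 and the day 17 libraries at −47.3 to −11.3. CD8 T cell markers were high in all 8 libraries, with Cd3e at 341.5 to 613.8 CPM and Cd8b1 at 301.3 to 678.5 CPM, and Cd4, excluded by the gate, was at 5.21 to 14.1 CPM.

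From 3 to 10 days of drug the sorted cells gained transcripts of cytotoxic granules, chemokines, cell division and glycolysis. Over the same days they had lower levels of transcripts of quiescence and memory, of interferon responses, of cytokine and chemokine receptors and of TGF-β signalling. In counts, 366 of the 9962 genes rose (3.67%) and 1763 fell (17.7%) at an adjusted p under 0.05 in edgeR's quasi-likelihood test, the rule for every call below. The median log2 fold change was 0.99 among the risers and −0.67 among the fallers. A change of at least 2-fold was seen in 182 of the risers and 271 of the fallers, and of at least 4-fold in 40 and 16. All 4 day 17 libraries lay above all 4 day 10 libraries for 306 of the risers and below them for 1544 of the fallers, against 620 (6.22%) and 1998 (20.1%) among all 9962 genes. The share called lower was 6.25% of genes from 16 to 32 CPM and 30.8% of those from 128 to 256 CPM.

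The balance of rises and falls moved with the scaling of libraries and with the test. With the TMM scaling used here the median log2 fold change over the 9962 genes was −0.14, a shift that the fold changes given here include. By level the median ran from 0.05 for genes of 16 to 32 CPM to −0.20 for those of 128 to 256 CPM. In edgeR, risers made up 17.2% of all calls with TMM, 26.1% with RLE scaling (517 higher, 1467 lower) and 37.3% with library size alone (686 higher, 1153 lower, median −0.01). They made up 53.5% with cyclic loess (995 higher, 866 lower, median 0.04), a setting that here and below was run in limma-voom and so changes the test as well as the scaling. With a minimum count of 50 they made up 37.2% (835 higher, 1408 lower), with DESeq2 29.3% and with limma-voom on TMM factors 28.5%. Without the 2 libraries that stood apart 338 genes rose and 1160 fell. By construction of the level limit, 495 of the 9962 genes reached 16 CPM only in the day 17 mean and 261 only in the day 10 mean. Among the 9206 with both means at or above it, 265 rose and 1674 fell. The limit itself fell among many genes, with 399 between 16 and 18 CPM and 427 just outside, between 14 and 16 CPM.

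**Figure D1:**
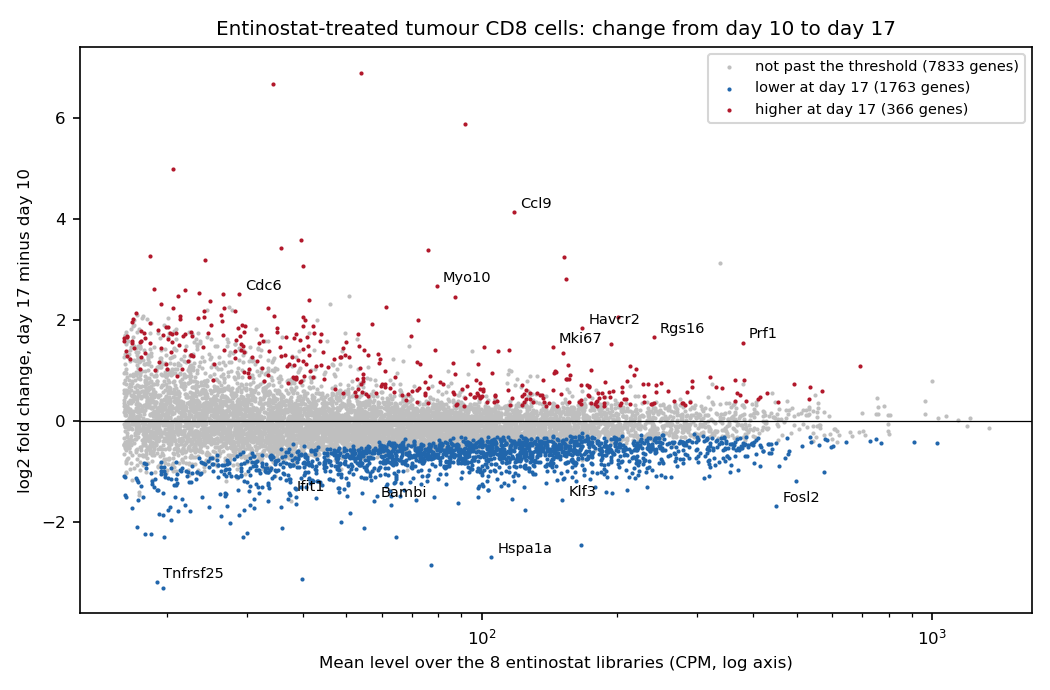
Log2 fold change from day 10 to day 17 under entinostat (vertical axis) against the mean level over the 8 libraries (CPM, log axis), each point a gene of at least 16 CPM. The 366 risers (red) reach further from 0 than the 1763 fallers (blue), which sit mostly between 0 and −1, and the 7833 other genes are grey.

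In vehicle-treated tumours 157 of these genes rose (1.58%) and 624 fell (6.26%) over the same days. Of the 366 genes that rose under entinostat 30 also rose under vehicle, and of the 1763 that fell 361 also fell. The vehicle fold change had the same sign for 251 of the 366 and for 1596 of the 1763. A test of the difference between the day changes called 38 genes higher under entinostat (0.381%) and 43 lower (0.432%). This count was the least stable of the 3, at 6 to 60 higher and 6 to 51 lower when 1 library was left out, 328 and 223 with DESeq2, and 10 and 7 with the replicate number as a block. Of the 38 and 43, 27 were among the risers and 40 among the fallers. The entinostat counts ran from 249 to 372 higher and from 1348 to 2106 lower when 1 library was left out. Those of vehicle ran from 28 higher and 164 lower without vehicle day 10 replicate 3 to 443 higher and 1464 lower without vehicle day 17 replicate 1.

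Among the cytotoxic effectors the pore-forming protein and several granzymes rose, while granzyme A did not pass the test. Prf1, which encodes perforin (chromosome 10, 61297751 to 61304684, GRCm38, Entrez 18646), had 164, 222, 198 and 185 CPM in the day 10 libraries and 561, 640, 639 and 427 CPM in the day 17 libraries. The groups were separate, and the mean of Prf1 rose from 192 ± 24.2 to 567 ± 99.9 CPM (± SD over 4 libraries, as throughout). Its log2 fold change was 1.55 ± 0.15 (± SE, as throughout; edgeR adjusted p = 9.08e-06). Gzmb, the gene of granzyme B, a protease that starts apoptosis in target cells, had 518, 434, 467 and 339 CPM at day 10 and 737, 629, 1719 and 686 CPM at day 17. Its highest value belonged to the shallowest library, the groups did not overlap, and the log2 fold change was 1.08 ± 0.25 (edgeR adjusted p = 0.00687). Without that library, entinostat day 17 replicate 3, it was 0.63 (edgeR adjusted p = 0.00995). Gzma, the gene of granzyme A, named with its values known, was at 179 to 212 CPM at day 10 and 139 to 252 CPM at day 17, overlapping, at −0.018 ± 0.19 (edgeR adjusted p = 0.969). Gzme had at most 1.54 CPM at day 10 and 150.2, 149, 33.2 and 95.0 CPM at day 17, and Gzmf had 0.372, 9.78, 0 and 1.43 CPM at day 10 and 144 to 227 CPM at day 17 (edgeR adjusted p = 0.000296 and 0.001). Under vehicle Gzme rose by 4.85 ± 1.30 (edgeR adjusted p = 0.0379), and Gzmf, at 4.15 ± 1.36, did not pass (0.0755). Vehicle day 17 replicate 1 had 22.7 CPM of Gzme and 34.0 CPM of Gzmf, and the other vehicle libraries at most 2.40 and 2.74 CPM. The difference between the treatments passed for neither gene (edgeR adjusted p = 0.784 and 0.790). These granzymes are so alike in sequence to Gzmc, Gzmd and Gzmg that their separate counts are uncertain. Cst7, the cathepsin inhibitor cystatin F, rose from 74.0 ± 1.71 to 124 ± 29.3 CPM.

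Of the 23 cytotoxic granule genes listed, 21 reached 16 CPM, and of these 9 rose, 0 fell and 12 did not pass, and the median log2 fold change was 0.13 beside −0.14 for all genes. The other 4 risers, named with their values known, were Gzmc, Gzmd, the granule docking GTPase Rab27a at 0.73 and the granule membrane protein Nkg7 at 0.67. Of the 18 with both day means at 16 CPM or more, 6 rose. The number of risers was 8 or 9 when any 1 entinostat library was left out, with library size alone and with cyclic loess. Under vehicle 2 genes of this list rose and 3 fell. Interferon gamma (Ifng) had 245, 199, 171 and 241 CPM at day 10 and 253, 288, 234 and 123 CPM at day 17. Its groups overlapped, and its log2 fold change of 0.07 ± 0.20 did not pass (edgeR adjusted p = 0.881) and was below 0 without entinostat day 10 replicate 2 or 3 or without day 17 replicate 1 or 2.

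Chemokines and growth factors of myeloid cells were among the steepest rises. Ccl9, a chemokine that attracts myeloid cells (chromosome 11, Entrez 20308), had 22.3, 8.75, 7.40 and 12.3 CPM at day 10 and 161, 196, 305 and 228 CPM at day 17. These ranges lay far apart, with a day change of 4.14 ± 0.56 on the log2 scale (edgeR adjusted p = 0.0001). Under vehicle the mean of Ccl9 was 3.27 CPM at day 10 and 3.94 CPM at day 17. The difference between its day changes, 3.80 ± 0.94, did not pass (edgeR adjusted p = 0.081). Spp1, the secreted phosphoprotein osteopontin, had 5.95, 34.8, 12.3 and 93.8 CPM at day 10 and 300.0, 335, 290.3 and 160.1 CPM at day 17, the highest day 10 value being that of replicate 4. It rose by a log2 fold change of 2.81 ± 0.61, and under vehicle by 2.83 ± 0.64. Csf1, the growth factor of macrophages, had 26.4, 66.7, 36.4 and 179 CPM at day 10 and 414, 483, 158 and 243 CPM at day 17. Its groups overlapped through day 10 replicate 4, and it rose by 2.07 ± 0.46. Under vehicle its change of 1.06 ± 0.46 did not pass (edgeR adjusted p = 0.154). Of 15 cytokine and chemokine genes at 16 CPM or more, out of 20 listed, 5 rose and 1 fell, with a median of 0.35. Of the 13 with both day means at that limit, 4 rose and 1 fell. The remaining risers, named with their values known, were Ccl3 at 0.91 and Ccl4 at 0.67. The one that fell was Il16, a CD4 ligand, at −0.56 ± 0.09. Between 3 and 5 of these genes rose when any 1 library was left out. Under vehicle 1 of the 15 rose and 3 fell, and the difference between the treatments passed for 0 of them.

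**Figure D2:**
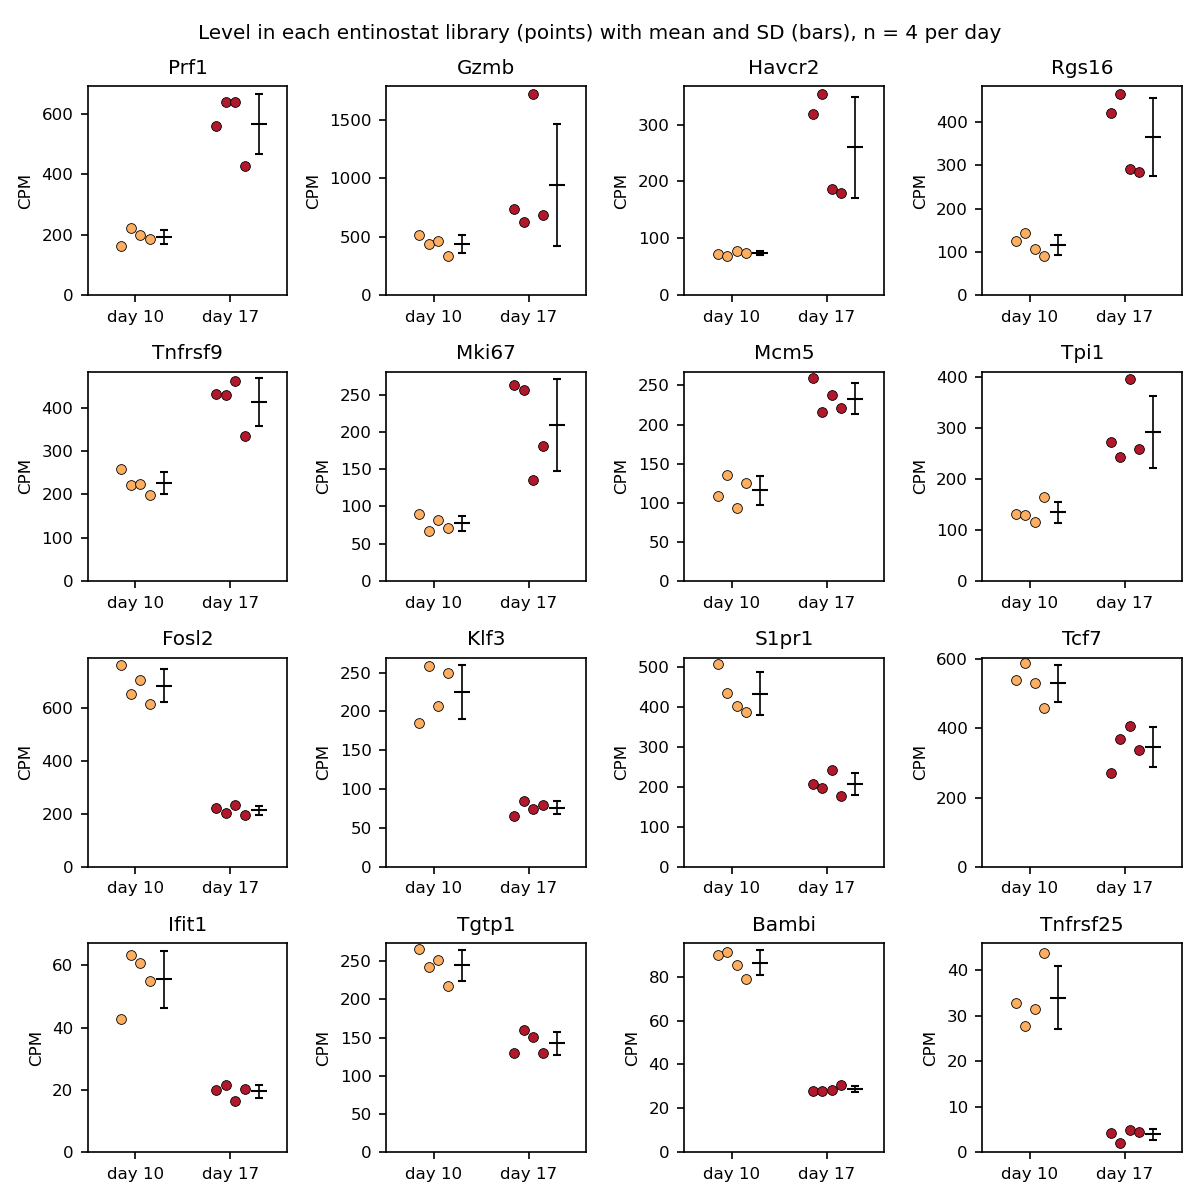
Level in CPM of 16 genes in each entinostat library (points), with the mean and SD of 4 libraries (bars), day 10 in orange and day 17 in red. Prf1, Havcr2 and Mki67 lie higher at day 17 and Fosl2, Klf3 and Ifit1 lower, with no overlap of the days for any of the 16 genes, while Gzmb at day 17 has 1 library at 1719 CPM.

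The inhibitory receptor TIM-3 and several other inhibitory molecules rose, while others fell. Havcr2, which encodes TIM-3 and marks chronically stimulated T cells (chromosome 11, 46454931 to 46481255, Entrez 171285), had 72.9, 69.8, 78.0 and 74.0 CPM at day 10. At day 17 it had 319, 354, 187 and 179 CPM, so that replicates 1 and 2 lay above replicates 3 and 4 and all 4 above day 10. The log2 fold change was 1.84 ± 0.19 (edgeR adjusted p = 1.43e-05). Entpd1, the ATP-degrading enzyme CD39, rose from 60.7 ± 5.07 to 157 ± 36.9 CPM, by 1.39 ± 0.24. Pdcd1, the gene of PD-1, had 362 to 431 CPM at day 10 and 469 to 577 CPM at day 17, with no overlap. Its log2 fold change of 0.39 ± 0.10 passed (edgeR adjusted p = 0.0159), but not without entinostat day 10 replicate 2 (0.0568), day 10 replicate 4 (0.0705) or day 17 replicate 3 (0.0509). Cd274, the gene of the ligand PD-L1, fell from 242 ± 11.5 to 118 ± 28.6 CPM, and Ptger4, a prostaglandin receptor, from 138 ± 24.7 to 62.9 ± 14.1 CPM. In all, 22 of 24 listed inhibitory genes reached 16 CPM. Of these 6 rose (27.3%, beside 3.67% of all 9962 genes) and 5 fell (22.7%, near the 17.7% of all genes). With cyclic loess 9 rose and 2 fell. The others, named with their values known, were Lag3 at 1.49, Cd38 at 0.69 and Cd244 at 0.90 among the risers and Btla at −0.79, Socs1 at −0.46 and Adora2a at −1.09 among the fallers.

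Transcription factors of effector and exhausted cells moved in both directions. Nfatc2, a factor activated by calcium signalling, fell from 260 ± 35.5 to 150 ± 18.1 CPM, Batf, a partner of AP-1, from 94.7 ± 3.85 to 59.9 ± 6.56 CPM and Stat4, which acts downstream of IL-12, from 325 ± 17.5 to 209 ± 46.2 CPM. Runx3, a factor of CD8 lineage and effector genes, fell by 0.59 ± 0.13, a call lost with cyclic loess (limma-voom adjusted p = 0.0523). Tox, a factor of exhausted T cells, had 107, 104, 124 and 137 CPM at day 10 and 69.8, 154, 96.2 and 147 CPM at day 17. The day 17 values lay on both sides of the day 10 range, the log2 fold change was 0.00 ± 0.19 (edgeR adjusted p = 0.996), and its sign changed between settings. Of 19 such factors at 16 CPM or more, 3 rose (15.8%, beside 3.67% of all 9962 genes) and 5 fell (26.3%, beside 17.7%) with TMM. With cyclic loess 5 rose and 3 fell. The 3 risers, named with their values known, were Id2 at 0.65, Irf8 at 0.79 and Bhlhe40 at 0.43.

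Among costimulatory and death receptors 4-1BB rose and death receptor 3 fell. Tnfrsf9, which encodes 4-1BB, had 260, 223, 225 and 199.6 CPM at day 10 and 432, 429.7, 463 and 335 CPM at day 17. It rose by 0.87 ± 0.12 (edgeR adjusted p = 8.93e-05), with no overlap. Tnfrsf25, the gene of death receptor 3 (chromosome 4, Entrez 85030), had 32.7, 27.8, 31.5 and 43.8 CPM at day 10 and 4.18, 2.15, 4.98 and 4.41 CPM at day 17. No later library reached 5 CPM, and the log2 fold change was −3.19 ± 0.31 (edgeR adjusted p = 9.08e-06). Cd40lg, the CD40 ligand of helper cells, fell from 78.5 ± 18.4 to 18.7 ± 8.60 CPM. Cd7, a surface glycoprotein of T and NK cells, fell from 154 ± 16.6 to 102 ± 5.29 CPM. Of the 17 genes of this list at 16 CPM or more, 1 rose, 7 fell and 9 did not pass (2 rose and 4 fell with library size alone, 2 and 6 with cyclic loess). Of the 15 with both day means at that limit, 1 rose and 6 fell. Tnfrsf4, which encodes OX40 and is named with its values known, lay at 41.3 to 63.6 CPM at day 10 and 68.5 to 85.6 CPM at day 17 and did not pass (edgeR adjusted p = 0.0871).

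Many genes of quiescence, memory and lymphoid recirculation fell. Klf3, a repressor of the Krüppel-like family, had 186, 258, 207 and 250.03 CPM at day 10 and 65.6, 84.8, 74.7 and 79.7 CPM at day 17. The highest day 17 value was below the lowest of day 10 by more than 2-fold, and the log2 fold change was −1.56 ± 0.17 (edgeR adjusted p = 1.54e-05). S1pr1, the receptor by which T cells leave lymphoid tissue, had 507, 435, 401 and 387 CPM at day 10 and 208, 196, 242 and 177 CPM at day 17, and fell by 1.09 ± 0.12. Foxo1, a factor that keeps T cells quiescent, fell from 352 ± 12.3 to 190 ± 20.4 CPM. Itga4, the α4 integrin chain, fell from 475 ± 29.1 to 235 ± 27.0 CPM. Tcf7, the gene of TCF1, a factor of memory and stem-like T cells, had 539, 589, 532 and 460 CPM at day 10 and 271, 368, 406 and 338 CPM at day 17. Its groups did not overlap, and it fell by 0.63 ± 0.12 (edgeR adjusted p = 0.00207).

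All 26 naive and memory genes listed reached 16 CPM, and of these 0 rose, 16 fell and 10 did not pass, and the median log2 fold change was −0.62. Further fallers, named with their values known, were Slamf6, Foxp1, Lef1, Bcl6, Cxcr5, Il7r, Bach2, Satb1, Txk and Bcl2, from −0.53 for Bcl2 to −1.87 for Cxcr5. Of the 24 with both day means at 16 CPM or more, 15 fell. With library size alone 14 fell and with cyclic loess 11. Under vehicle 3 of the 26 fell, and the difference between the day changes passed for 1 of them. In bulk samples such as these, fewer cells of a type and less RNA per cell cannot be told apart.

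Many genes of DNA replication rose. Mcm5, a helicase subunit, had 109, 135, 93.4 and 125 CPM at day 10 and 259, 215, 237 and 220.5 CPM at day 17, and rose by 1.01 ± 0.13 (edgeR adjusted p = 8.87e-05), without overlap. Mcm6, whose promoter is printed above, had 155, 142, 122 and 179 CPM at day 10 and 290.03, 246, 305 and 297 CPM at day 17, and Rfc3 had 19.7 to 37.7 CPM and 42.0 to 56.0 CPM. Neither had overlapping groups, and they rose by 0.92 ± 0.14 and 0.79 ± 0.22. Uhrf1, an adaptor of the maintenance DNA methyltransferase, had 57.3, 64.4, 53.7 and 74.3 CPM at day 10 and 179, 129.8, 171 and 189 CPM at day 17, and rose by 1.41 ± 0.18. Cdc6, which loads the helicase at origins, was at 6.79 to 9.56 CPM at day 10 and 40.7 to 59.7 CPM at day 17, and rose by 2.52 ± 0.39. Of 43 replication genes listed, 40 reached 16 CPM, and 20 of them rose and 1 fell, with a median of 0.69. Of the 36 with both day means at 16 CPM or more, 17 rose. The one that fell, named with its value known, was Cdt1, a licensing factor, at −0.67. The number of risers was 14 to 22 when 1 library was left out, 28 with library size alone and 31 with cyclic loess. Under vehicle 2 rose and 1 fell, with a median of 0.13.

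Mitosis genes showed the largest share of rises among the lists described. Mki67, the gene of the proliferation marker Ki-67, had 89.6, 66.9, 82.3 and 71.0 CPM at day 10 and 264, 256, 136 and 182 CPM at day 17. The lowest day 17 value was that of the shallowest library and still above every day 10 value, and Mki67 rose by 1.47 ± 0.21 (edgeR adjusted p = 0.000177). Mad2l1, a protein of the spindle checkpoint, had 24.9, 26.5, 25.6 and 21.3 CPM at day 10 and 69.1, 54.9, 71.3 and 61.1 CPM at day 17, and rose by 1.38 ± 0.17. Cdk1 had 13.9 to 25.6 CPM at day 10 and 42.5 to 69.1 CPM at day 17, and Smc2 had 57.0 to 63.5 CPM and 98.4 to 132 CPM, with increases of 1.6 ± 0.28 and 0.94 ± 0.17. Stmn1, a regulator of microtubules, rose by 1.44 ± 0.21 and Tacc3, a protein of the mitotic spindle, by 1.40 ± 0.21. Of 48 genes listed, 45 reached 16 CPM, and 33 of them rose and 0 fell (28 to 33 rose when 1 library was left out), and the median log2 fold change was 1.44. Of the 28 with both day means at 16 CPM or more, 19 rose. Under vehicle the median was 0.78 and 9 rose, and the difference between the treatments passed for 1, Mad2l1. The changes under the 2 treatments had the same direction, and a larger change under entinostat was not shown for the other genes of the list.

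Regulators of the step into S phase moved less uniformly. E2f1, an activator of replication genes, rose from 8.99 ± 5.52 to 37.9 ± 10.9 CPM and E2f7, a repressor of the same family, from 7.61 ± 4.29 to 28.9 ± 7.11 CPM. Cdkn1b, the gene of the cyclin kinase inhibitor p27, fell from 85.9 ± 19.8 to 38.0 ± 16.7 CPM, and Ccnd2, a D-type cyclin, fell by 0.53 ± 0.11, a call lost with cyclic loess (limma-voom adjusted p = 0.0744). Cdkn1a, the gene of p21 and a known target of HDAC inhibitors, stood at −0.35 ± 0.21 with overlapping groups and did not pass (edgeR adjusted p = 0.304). Of 20 genes of this kind 3 rose (15%, beside 3.67% of all 9962 genes) and 3 fell (15%, near the 17.7% of all genes). E2f1 and E2f7 reached the level limit through day 17 alone, and of the 16 genes with both day means at it 1 rose and 3 fell. Without entinostat day 10 replicate 4 and day 17 replicate 3 together 7 rose and 2 fell.

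Promoters were available for 8047 of the 9962 genes, and the letters described above were counted in the 250 bases before the start, on both strands, a gene with several starts being counted once if any window matched. An E2F site, TTTGGCGC or TTTCGCGC, was found for 4 of 17 replication genes that rose (23.5%), for 1.53% of the 8047 genes and for 0.759% of the 27025 genes with a promoter in the RefSeq table. The letters TTTGAA occurred for 13 of 27 mitosis genes that rose (48.1%), 13.2% of the 8047 and 18.3% of the whole table. CCAAT occurred for 20 of those 27 (74.1%), for 12 of the 17 replication genes (70.6%), for 40.8% of the 8047 and for 37.5% of the table. The E-box letters CACGTG, which MYC can bind, occurred for 9.45% of the 307 risers with a promoter and 10.2% of the 8047. Members of the replication and mitosis lists that did not rise were not counted, so their shares cannot tell the rise from list membership. A match of letters is a description of the sequence and not a site of binding.

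Many enzymes of glycolysis rose. Tpi1, triosephosphate isomerase, had 132, 129, 115 and 164 CPM at day 10 and 272, 243, 396 and 258 CPM at day 17, and rose by 1.09 ± 0.14 (edgeR adjusted p = 7.01e-05). Pgk1, phosphoglycerate kinase, rose from 138 ± 8.99 to 237 ± 29.0 CPM, by 0.77 ± 0.10. In both genes the highest day 17 value was that of the shallowest library, and neither had overlapping groups. Pgam1, phosphoglycerate mutase, rose by 0.63 ± 0.12 and Ndrg1, a hypoxia-responsive gene, by 1.13 ± 0.25, beside 1.20 ± 0.25 under vehicle. Of 28 glycolysis and hypoxia genes at 16 CPM or more, out of 30 listed, 12 rose and 1 fell, and the other risers were Mif, Gpi1, Pkm, Aldoa, Bnip3, Eno1, Ldha and Gapdh, named with their values known, from 0.36 to 0.87. Hk2, a hexokinase, was the one that fell, at −0.93. Without entinostat day 10 replicate 4 and day 17 replicate 3 together 7 rose, and when 1 library was left out 8 to 12. Under vehicle 1 of them rose.

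Respiratory chain and ribosomal protein genes had medians slightly above 0, and the number of respiratory chain calls differed between settings. Of 55 respiratory chain genes 5 rose and 0 fell, and the median log2 fold change was 0.22. The number of risers was 1 to 4 when 1 library was left out, 0 without the 2 libraries that stood apart, 21 with library size alone in edgeR and 30 with cyclic loess. Atp5j, a subunit of ATP synthase, had 79.2, 78.0, 82.3 and 77.4 CPM at day 10 and 103, 97.5, 163 and 102 CPM at day 17, an adjusted p of 0.0154 by edgeR that became 0.0501 without entinostat day 10 replicate 2. Of 76 cytosolic ribosomal protein genes 0 rose and 0 fell in edgeR, with a median of 0.18, while library size alone gave 3 rises and cyclic loess 1. Rpl4 was at 291 to 374 CPM at day 10 and at 381, 358, 574 and 373 CPM at day 17, the highest again in the shallowest library.

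Many genes induced by type I interferon fell. Ifit1 had 42.8, 63.3, 60.7 and 54.9 CPM at day 10 and 19.9, 21.5, 16.6 and 20.4 CPM at day 17, and fell by 1.46 ± 0.20 (edgeR adjusted p = 0.000115). Rtp4, a chaperone of receptor trafficking induced by interferon, had 49.1, 52.3, 41.6 and 46.3 CPM at day 10 and 15.4, 21.3, 19.9 and 22.4 CPM at day 17, and fell by 1.26 ± 0.18. In both genes every day 17 value was below every day 10 value. Slfn5, of the Schlafen family, fell from 93.7 ± 8.86 to 31.9 ± 10.3 CPM and Ifi27l2a from 87.6 ± 18.8 to 34.8 ± 7.94 CPM. Of 48 genes listed, 40 reached 16 CPM, and 24 of these fell, 1 rose and 15 did not pass, with a median of −0.64. Of the 34 with both day means at 16 CPM or more, 20 fell. The one that rose, named with its value known, was Ly6e at 0.71. When 1 library was left out 17 to 27 fell, with library size alone 16 and with cyclic loess 13. Under vehicle 5 fell, with a median of −0.34, and the difference passed for Slfn5 alone.

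Many of the GTPases induced by interferon gamma fell as well, under both treatments. Tgtp1 had 267, 243, 252 and 218 CPM at day 10 and 130.2, 160.2, 151 and 129.6 CPM at day 17, and fell by 0.78 ± 0.10 (edgeR adjusted p = 7.86e-05). The near-identical Tgtp2, which can share its reads, fell by 0.77 ± 0.13. Gbp9, a guanylate-binding protein, fell from 253 ± 13.8 to 148 ± 18.4 CPM and Irgm1, which acts against intracellular microbes, from 201 ± 12.8 to 116 ± 33.8 CPM. Of the 18 genes listed, all at 16 CPM or more, 10 fell and 0 rose, with a median of −0.62. Under vehicle 8 fell, with a median of −0.50, and the difference between the treatments passed for none of the 18. The response element letters GAAANNGAAA were found for 7 of the 7 fallers of this list that had a promoter in the table, for 9 of 18 type I interferon fallers and for 3.45% of the 8047 genes. The gamma-activated site letters TTCNNNGAA were found for 5 of those 7 (71.4%), for 3 of those 18 (16.7%) and for 7.34% of the 8047. Members of both lists that did not fall were not counted, so these shares cannot tell the fall from list membership.

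MHC class II genes, carried by antigen-presenting cells rather than mouse T cells, gave few calls. H2-Ob, a chain of the regulator of class II peptide loading, had 35.0, 54.1, 30.5 and 37.9 CPM at day 10 and 15.1, 8.89, 16.6 and 17.6 CPM at day 17, and fell by 1.45 ± 0.32 (edgeR adjusted p = 0.00498). Its partner H2-Oa fell by 1.09 ± 0.32 (edgeR adjusted p = 0.0319), a call that ended without any 1 of 6 libraries, with the highest adjusted p, 0.0845, without entinostat day 10 replicate 2. The class II chain H2-Aa was at 44.5 to 83.1 CPM at day 10 and 35.8 to 51.9 CPM at day 17, overlapping, at −0.55 ± 0.30 (edgeR adjusted p = 0.253). Cd74, the invariant chain, stood at −0.47 ± 0.23 (0.185). Of 7 genes these 2 fell, H2-Ob and H2-Oa, and both reached the level limit through day 10 alone. Of the 5 with both day means at 16 CPM or more 0 fell. Some markers of cells that carry class II also moved between the days. Of 12 plasmacytoid dendritic cell markers at 16 CPM or more 5 fell and 1 rose, with a median of −0.52, and under vehicle 0 fell, with a median of 0.22. The fallers, named with their values known, were Atp1b1, Klk1, Pld4, Ccr9 and Bst2, from −1.09 to −0.49, and Irf8, which lymphocytes also express, rose. Siglech, a defining receptor of these cells, had 34.5 to 103 CPM at day 10 and 28.2 to 72.6 CPM at day 17 and did not pass (edgeR adjusted p = 0.259). Of the 12 plasmacytoid markers 2 to 5 fell when 1 library was left out, 1 with library size alone and 0 with cyclic loess. Of 7 macrophage and monocyte markers at 16 CPM or more Tyrobp, Fcer1g and Ctss fell and 0 rose, and with cyclic loess 0 fell. Of 13 conventional dendritic cell markers at that level 1 rose and 1 fell, with a median of 0.34. Of 2 B cell markers 0 passed, with a median of 0.24. The part of such cells in the falls of interferon-induced and class II genes was not tested.

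Receptors for cytokines and their signalling molecules were lower at day 17 in many cases. Il4ra, the receptor chain of IL-4, had 514, 601, 561 and 476 CPM at day 10 and 277, 302, 295 and 289 CPM at day 17, and fell by 0.89 ± 0.11 (edgeR adjusted p = 3.8e-05). Ifngr2, a chain of the interferon gamma receptor, had 37.2, 60.5, 64.1 and 72.7 CPM at day 10 and 19.3, 18.3, 16.6 and 20.0 CPM at day 17, and fell by 1.64 ± 0.21. Neither gene had overlapping groups. Socs3, a feedback inhibitor of cytokine signalling, fell from 410 ± 30.9 to 246 ± 38.1 CPM and Stat5b, which acts downstream of IL-2, from 442 ± 39.0 to 252 ± 55.6 CPM. Of 33 genes at 16 CPM or more, out of 34 listed, 16 fell (48.5%, beside 17.7% of all 9962 genes) and 1 rose. The riser, named with its value known, was Il2ra, the high-affinity IL-2 receptor chain, at 0.71. Il2ra had 120 to 139 CPM at day 10 and 290, 227, 151 and 151 CPM at day 17. When 1 entinostat library was left out 15 or 16 genes of the list fell and 0 or 1 rose. With no filter and with the replicate block 0 rose. With cyclic loess 10 fell and 2 rose. Under vehicle 7 fell.

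Many TGF-β signalling genes fell, among them receptors, SMADs and the feedback inhibitors of the pathway. Bambi, a decoy receptor of the TGF-β family, had 90.0, 91.1, 85.4 and 78.8 CPM at day 10 and 28.0, 28.0, 28.2 and 30.9 CPM at day 17. Values within each day were close together and the days far apart, with a day change of −1.58 ± 0.18 on the log2 scale (edgeR adjusted p = 3.46e-05). Smad7, the inhibitory SMAD, fell from 251 ± 13.7 to 126 ± 20.9 CPM, and Smad3, which carries the signal to the nucleus, from 124 ± 11.1 to 64.8 ± 9.39 CPM. Rgs16, a brake on G protein signalling that is also on this list (chromosome 1, Entrez 19734), had 125, 144, 106 and 90.1 CPM at day 10 and 420.3, 464, 290.3 and 285 CPM at day 17. It rose by 1.67 ± 0.17 (edgeR adjusted p = 1.26e-05). Of 24 genes at 16 CPM or more, out of 26 listed, 12 fell and 2 rose (7 and 2 with library size alone, 7 and 4 with cyclic loess). The receptor genes Tgfbr1 and Tgfbr2 were among the fallers, at −0.90 and −0.41, and Itgav, an integrin chain that activates TGF-β, was the other riser at 1.03, named with their values known. Under vehicle 6 of the 24 fell.

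Several chemokine receptors and other receptors of migration fell. Cxcr4, the receptor of CXCL12, had 156, 149, 119 and 197 CPM at day 10 and 55.6, 60.6, 82.9 and 75.3 CPM at day 17, and fell by 1.22 ± 0.15 (edgeR adjusted p = 5.64e-05). Ccr4 had 53.9, 27.0, 58.6 and 92.4 CPM at day 10 and 8.68, 14.3, 18.2 and 14.6 CPM at day 17, and fell by 2.11 ± 0.33. Cxcr3, the receptor of interferon-induced chemokines, had 232 to 271 CPM at day 10 and 143 to 186 CPM at day 17, and fell by 0.56 ± 0.09. None of the 3 had overlapping groups. Of 19 such genes at 16 CPM or more, out of 23 listed, 8 fell and 0 rose, and with cyclic loess 6 fell and 1 rose. Ccr4 reached the limit through day 10 alone, and of the 16 with both day means at it 6 fell. Under vehicle 1 fell and 1 rose.

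**Figure D3:**
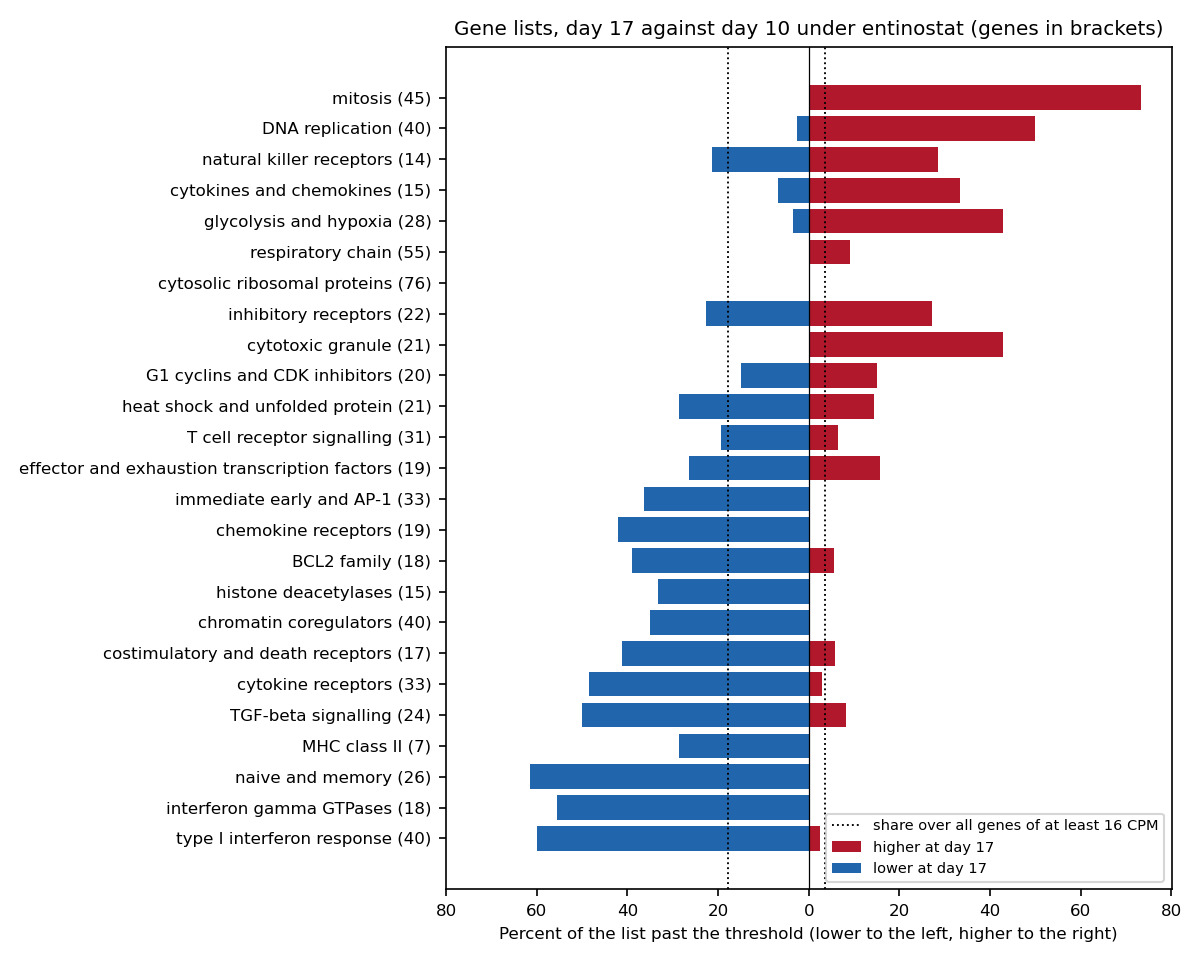
Percent of each gene list past the threshold, lower at day 17 to the left (blue) and higher to the right (red), with the number of genes at 16 CPM or more in brackets and dotted lines at the shares over all 9962 genes (17.7% and 3.67%). Mitosis, DNA replication, glycolysis and cytotoxic granule lists reach furthest to the right, and the naive and memory and both interferon lists furthest to the left.

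Immediate early genes and the AP-1 family gave the gene of smallest p in the whole comparison. Fosl2, an AP-1 subunit (chromosome 5, 32136472 to 32157840, Entrez 14284), had 765, 656, 709 and 619 CPM at day 10 and 223, 202, 234 and 197 CPM at day 17. The groups lay more than 2-fold apart at their nearest, and the log2 fold change was −1.69 ± 0.12 (edgeR adjusted p = 2.8e-07). Ier5, an immediate early gene, fell from 246 ± 21.6 to 127 ± 17.9 CPM, and Zfp36l1, an RNA-binding protein that destabilises AU-rich messages, from 292 ± 12.6 to 139 ± 34.5 CPM. Its relative Zfp36 fell by 0.58 ± 0.12. Of 33 genes of this list at 16 CPM or more 12 fell and 0 rose, 7 fell and 2 rose with cyclic loess, and without entinostat day 10 replicate 4 and day 17 replicate 3 together 17 fell. Under vehicle 11 fell, and the difference passed for 1, Fosl2.

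Molecules that carry the signal of the T cell receptor were called in both directions, at shares near those of all genes. Fyn, a kinase of the receptor complex, fell from 460.1 ± 21.6 to 345 ± 24.5 CPM, and Bcl10, an adaptor on the path to NF-κB, by 0.71 ± 0.13. Dgka, which consumes diacylglycerol, fell by 0.48 ± 0.12, a call lost with a minimum count of 50 (edgeR adjusted p = 0.0604). Of 31 genes 6 fell (19.4%, beside 17.7% of all 9962 genes) and 2 rose (6.45%, beside 3.67%) with TMM, and 5 fell and 6 rose with cyclic loess. Cd8a was among the risers, from 331 ± 22.3 to 442 ± 109.8 CPM with overlapping groups, and its call (edgeR adjusted p = 0.046) ended in 13 of 19 other settings, among them without entinostat day 17 replicate 3 (0.158). Under vehicle 11 of the 31 fell.

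Some heat shock genes fell under both treatments, among them Hspa1a and Dnajb1. Hspa1a, an inducible chaperone whose reads the near-identical Hspa1b can share, had 283, 84.4, 112 and 231 CPM at day 10 and 20.6, 24.5, 59.7 and 24.1 CPM at day 17. The day 10 values were widely spread and all above day 17, at a log2 fold change of −2.70 ± 0.43, beside −2.60 ± 0.38 under vehicle. Its partner Dnajb1 fell by 0.99 ± 0.11, and by 0.99 ± 0.10 under vehicle. Dnajb9 and Atf4, of the response to unfolded protein, fell by 1.12 ± 0.17 and 0.55 ± 0.08. Of 21 genes 6 fell, 3 rose and 12 did not pass (4 rose with cyclic loess), with a median of −0.11, and under vehicle 7 fell.

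Genes of the BCL2 family and of cell death gave more lower than higher calls with TMM scaling in edgeR. Bcl2l11, which encodes the death-promoting protein BIM, fell from 384 ± 22.3 to 219 ± 29.3 CPM, and by 0.72 ± 0.11 under vehicle. The protective Mcl1 fell by 0.45 ± 0.09, and Bcl2l1, another protective member, by 0.66 ± 0.15, a call that cyclic loess did not keep (limma-voom adjusted p = 0.0782), nor did the fit without the 2 libraries that stood apart (edgeR adjusted p = 0.0511). Of 18 genes at 16 CPM or more 7 fell, 1 rose and 10 did not pass with TMM, 4 fell with library size alone and 2, equal to the number of risers, with cyclic loess.

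The class I deacetylase genes Hdac1, Hdac2, Hdac3 and Hdac8 did not pass the test. Hdac1 had 140, 130, 118 and 119 CPM at day 10 and 146, 144, 164 and 142 CPM at day 17, with a day change of 0.23 ± 0.11 on the log2 scale (edgeR adjusted p = 0.203). The groups did not overlap, and Hdac1 did pass in edgeR with a minimum count of 50 (adjusted p = 0.0245) or library size alone (0.0289), and with cyclic loess (limma-voom adjusted p = 0.012). Hdac2, Hdac3 and Hdac8 stood at 0.10 ± 0.11, −0.13 ± 0.12 and 0.05 ± 0.25, all with overlapping groups. The sign of Hdac3 turned with library size alone, a minimum count of 50 and cyclic loess, and that of Hdac8 without any 1 of 3 libraries. Among deacetylases of other classes, Hdac7 fell by 0.48 ± 0.13 and Hdac10 by 0.60 ± 0.18, and the NAD-dependent Sirt1 and Sirt7 by 0.81 ± 0.20 and 0.47 ± 0.12. All 4 lost the call with cyclic loess. Hdac7 also lost it without entinostat day 10 replicate 2 (edgeR adjusted p = 0.0584), day 17 replicate 1 (0.0616) or day 17 replicate 4 (0.0677), and Hdac10 without day 10 replicate 4 (0.0699), day 17 replicate 1 (0.0901) or day 17 replicate 3 (0.0607). Of 15 deacetylase genes 5 fell and 0 rose with TMM, 2 fell and 1 rose with library size alone, and 0 fell and 1 rose with cyclic loess.

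Other chromatin regulators fell in part. The demethylases of histone H3 lysine 27 fell, Kdm6b from 97.3 ± 26.2 to 34.0 ± 5.88 CPM and Kdm6a from 228 ± 23.9 to 150.5 ± 7.48 CPM. Kdm6b was highest at day 10 in replicate 4, at 136 CPM, with the other 3 at 81.4 to 88.2 CPM. Tet2, which oxidises methylated cytosine, fell from 166 ± 18.9 to 85.1 ± 19.8 CPM, and Brd2, a reader of acetylated histones, from 441 ± 18.2 to 313 ± 17.7 CPM. Of 40 genes at 16 CPM or more 14 fell and 0 rose, 10 fell and 1 rose with library size alone, and 9 fell and 2 rose with cyclic loess. Under vehicle 8 fell.

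Receptors shared with natural killer cells moved in both directions. Styk1, a receptor-like kinase, had 24.5, 31.4, 28.4 and 31.99 CPM at day 10 and 173, 141, 96.2 and 52.2 CPM at day 17, and rose by 1.99 ± 0.31. Klre1, a lectin-like receptor, had 8.18, 28.1, 12.6 and 22.9 CPM at day 10 and 66.6, 92.4, 48.1 and 30.9 CPM at day 17, and rose by 1.73 ± 0.41. Neither gene had overlapping groups. The adaptor genes Tyrobp and Fcer1g fell, from 39.8 ± 2.85 to 17.5 ± 5.41 CPM and from 24.03 ± 8.29 to 10.4 ± 1.94 CPM, calls that cyclic loess did not keep (limma-voom adjusted p = 0.154 and 0.0971). Of 14 genes at 16 CPM or more, out of 22 listed, 4 rose (28.6%, beside 3.67% of all 9962 genes). In the same list 3 fell (21.4%, near the 17.7% of all genes), and 7 rose and 0 fell with cyclic loess. Of the 11 with both day means at that limit, 3 rose and 2 fell.

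The remaining genes of smallest p had varied roles. Among the higher ones, Myo10, a myosin of filopodia, had 14.1, 19.8, 16.96 and 34.7 CPM at day 10 and 145, 188, 86.3 and 129.6 CPM at day 17, and rose by 2.68 ± 0.34. Arsb, a lysosomal sulfatase, had 92.2, 98.3, 92.8 and 121 CPM at day 10 and 307, 348, 187 and 304 CPM at day 17, and rose by 1.52 ± 0.20. Both kept the days apart. Among the lower ones, Atp10d, a phospholipid flippase, fell by 1.37 ± 0.11, Hs3st3b1, a sulfotransferase of heparan sulfate, by 1.63 ± 0.14 and Gna13, a G protein subunit that curbs lymphocyte migration, by 1.18 ± 0.10. Fam65b, an inhibitor of RhoA, fell from 428 ± 42.9 to 194 ± 17.4 CPM and Dusp10, a phosphatase of MAP kinases, from 283 ± 30.2 to 105 ± 9.19 CPM. Tob1, an antiproliferative factor of quiescent T cells, fell by 1.31 ± 0.13, and the changes of Tcp11l2, Rrad, Pja1 and Hivep2 ran from −1.01 to −1.28. None of these lower genes had overlapping groups. All 24 genes of smallest p, 12 in each direction, kept their direction and call in each of the 19 other settings tried.

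The day changes under entinostat and under vehicle differed for perforin, TIM-3 and Rgs16, which were higher at day 17 under entinostat alone, and for Fosl2 and death receptor 3. Prf1 had 189, 160, 192 and 149 CPM in vehicle day 10 libraries and 183, 149, 143 and 114 CPM in vehicle day 17 libraries, overlapping, where the entinostat libraries rose to 427 CPM or more. The difference of the log2 fold changes was 1.78 ± 0.21 (edgeR adjusted p = 0.00138). Havcr2 had 55.9, 51.6, 71.2 and 43.7 CPM at vehicle day 10 and 39.0, 46.1, 37.8 and 43.5 CPM at vehicle day 17, so that its vehicle change of −0.42 ± 0.20 did not pass and the difference was 2.26 ± 0.27. Rgs16 had 153 to 200 CPM at vehicle day 10 and 138 to 184 CPM at vehicle day 17, and the difference was 1.81 ± 0.24. Of the genes with a lower day change under entinostat, Fosl2 fell under vehicle too, from 572 ± 68.8 to 348 ± 43.5 CPM, and the further fall under entinostat was −0.97 ± 0.16. Tnfrsf25 had 39.7, 52.9, 62.5 and 40.8 CPM at vehicle day 10 and 36.0, 33.6, 23.4 and 43.9 CPM at vehicle day 17, where the entinostat libraries were at 2.15 to 4.98 CPM, a difference of −2.67 ± 0.40. These 5 genes passed in each of the 26 other settings tried for the difference.

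Gzmb had 240 to 357 CPM at vehicle day 10 and 148 to 210 CPM at vehicle day 17, lower without overlap, at −0.63 ± 0.25 (edgeR adjusted p = 0.125). The difference between its day changes was 1.71 ± 0.35 (edgeR adjusted p = 0.0423), a call that ended without any 1 of 11 of the 16 libraries. The highest adjusted p was 0.0828, without vehicle day 10 replicate 3. Entpd1 (1.82), Arsb (1.49), Mad2l1 (1.22), Tpi1 (0.91), Mcm5 (0.85), Tnfrsf9 (0.82) and Pgk1 (0.68) also had a higher log2 day change under entinostat. Klf3 (−1.21), Bambi (−1.35), Slfn5 (−1.42), Tyrobp (−1.27), H2-Ob (−2.38), Hs3st3b1 (−1.07), Fam65b (−0.80) and Atp10d (−0.73) had a lower one. Each of these 15 lost the call without at least 2 single libraries. Of the 21 cytotoxic granule genes 3 had a higher day change under entinostat and 0 a lower one, beside 0.381% and 0.432% of all 9962 genes. Prf1, which passed in every setting, and Gzmb, whose call was unstable as given above, were 2 of the 3.

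**Figure D4:**
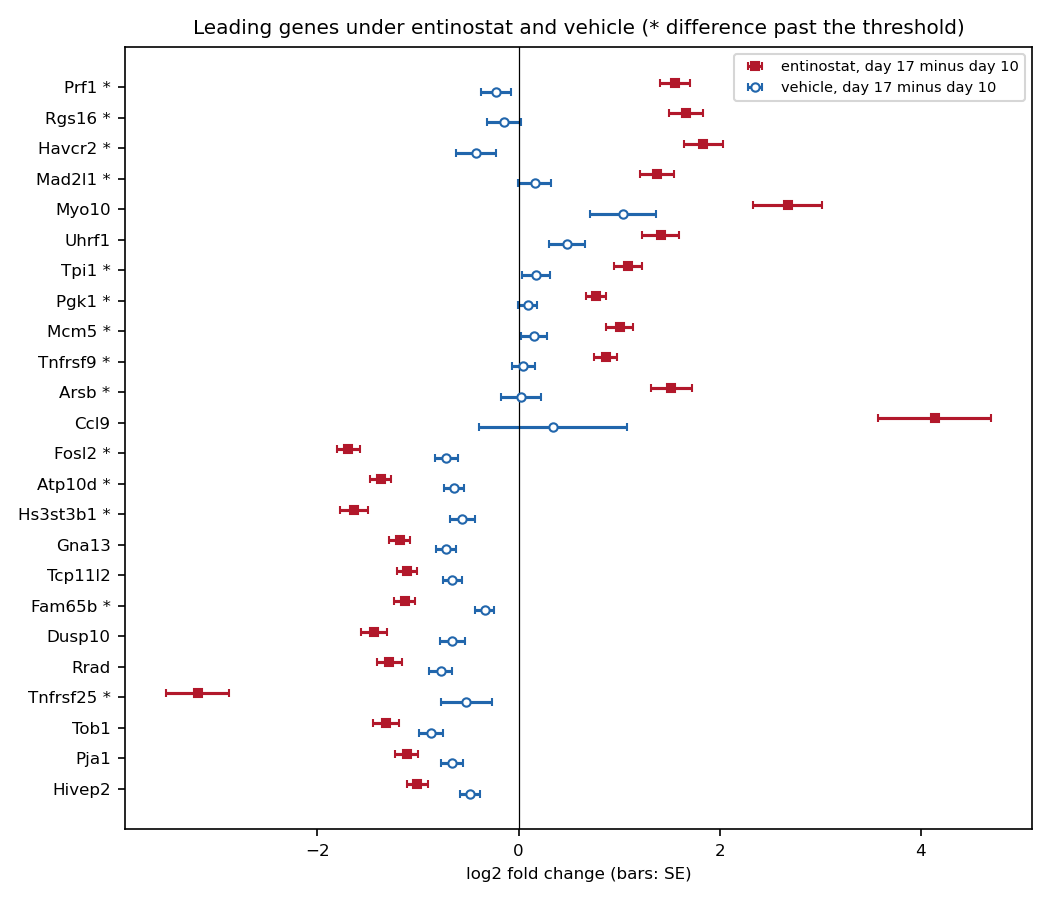
Log2 fold change from day 10 to day 17 of the genes of smallest p, 12 higher and 12 lower, under entinostat (red squares) and vehicle (open blue circles), with bars for the SE. An asterisk marks genes whose difference between the treatments passed the threshold, and Prf1, Rgs16 and Havcr2 have vehicle values near or below 0.

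Markers of other cells were compared between the days as summed levels, 13 sums in all, by a 2-sided exact permutation test that can go no lower than p = 0.029 with these group sizes. The 7 gamma delta T cell genes present in the table summed to 88.3 to 256 CPM at day 10 and to 29.9 to 46.0 CPM at day 17, without overlap (exact p = 0.029, adjusted p = 0.371). The 14 fibroblast genes summed to 191 to 217 CPM in day 10 replicates 1 to 3, to 899 CPM in day 10 replicate 4 and to 584 to 2013 CPM at day 17 (exact p = 0.0857). Fn1 made up much of that sum, at 15.7 to 196 CPM at day 10 and 199 to 1288 CPM at day 17. Day 10 replicate 4 thus held the highest day 10 value of this sum, of Spp1 and of Csf1, and the part of fibroblast transcripts in their rises was not tested. Without day 10 replicate 4 and day 17 replicate 3 together, Spp1 rose by 3.84, Csf1 by 3.11 and Ccl9 by 3.94 on the log2 scale. Plasmacytoid dendritic cell sums were 910 to 1510 CPM at day 10 and 873 to 1115 CPM at day 17, and those of macrophages and monocytes 862 to 1006 and 798 to 1239 CPM. B cell, neutrophil, conventional dendritic, CD4 and regulatory T, endothelial and epithelial sums gave exact p-values of 0.0571 or more. Of the 11 natural killer markers Klra4 and Klra8 were at 0 in all 8 libraries, and the sum was 356 to 407 CPM at day 10 and 298 to 428 CPM at day 17. Receptor gene sums overlapped between the days (exact p = 0.457).

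**Figure D5:**
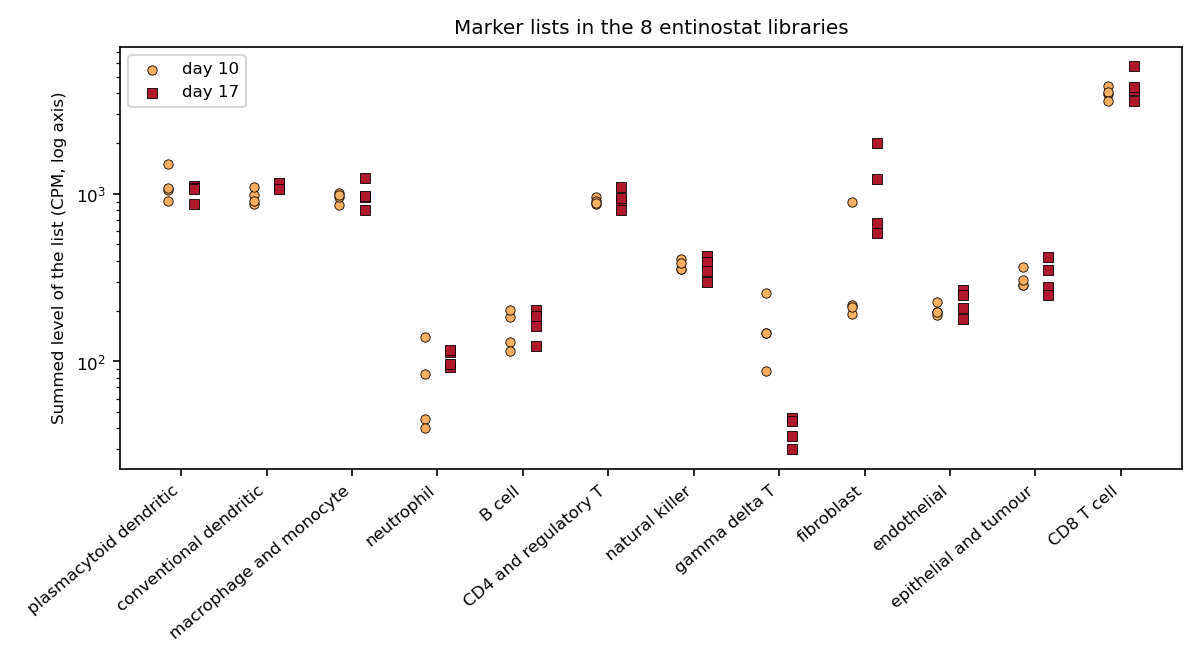
Summed level of each marker list (CPM, log axis) in the 8 entinostat libraries, circles for day 10 and squares for day 17. The gamma delta T cell list is the one without overlap in which day 17 is lower, fibroblast sums reach 2013 CPM at day 17, and CD8 T cell markers are highest in every library.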

How the data were processed

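Libraries were made from sorted CD8 T cells with SMART-seq v4 cDNA and Nextera XT, per the labels' protocols, and this chemistry records neither strand nor single molecules. The authors deposited exon read counts, whole numbers for 24028 genes with no scaling between libraries. The submitters' processing notes name STAR and mm10. How reads were counted, with which annotation, and whether PCR copies were removed was not given in the sources used here. Overlapping genes on opposite strands cannot be told apart.

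Group, day and replicate came from the labels. Positions came from a RefSeq table on GRCm38.p6, matched by Entrez identifier for 23968 genes, and 27 bare-number symbols were replaced from it. The filterByExpr function at a minimum count of 10 left 17414 genes. All 16 libraries entered one edgeR 4.0.16 fit (R 4.3.3, TMM scaling, group means, common biological variation 0.38), which left 12 residual degrees of freedom for the quasi-likelihood test. Adjustment by Benjamini-Hochberg covered all 17414 genes in each comparison, at a threshold of 0.05. Levels are CPM after TMM scaling. Total counts of 554593 to 6975904 set the precision. The script was tested on simulated counts.

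Members, gene lists and the naming rule were chosen with earlier results of these data known. Named are the 12 risers and 12 fallers with the lowest p, the 4 members of smallest p in each described list, and Hdac1 to Hdac3, Hdac8, Cd4, Cd8a, Gzmb, Prf1, Ifng, Mki67, Cdkn1a, Pdcd1, Havcr2, Tcf7 and Tox, with T cell receptor segments and gene models that lack a name passed over. Other genes are marked where they appear, and a few that the rule or a list holds are not reported here. The alternatives comprised DESeq2 1.42.0, limma-voom (limma 3.58.1) with quality weights, RLE scaling, unscaled library size, no filter, a minimum count of 50, receptor reads as covariate, a replicate block, the 8 entinostat libraries alone, other level limits and omission of each library. Cyclic loess and omission of both libraries that stood apart were added after seeing the data.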

Additional observations from a re-analysis of the deposited data

Results flagged for a closer look

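In 10 of 246 groups tested (123 named genes on 2 days) 1 library lay apart from the other 3 by Dixon's test. If the groups were independent, chance alone would flag about 1 in 20, or 12 of the 246. The genes share the same 8 libraries, so the total cannot tell whether a single library holds more flags than chance gives. Of the 10 flags, 7 belong to entinostat day 17 replicate 3, the shallowest library, and all 7 are high values. They are Gzmb at 1719 CPM (next highest 737 CPM), Hspa1a at 59.7 CPM (24.5 CPM), Atp5j at 163 CPM (103 CPM), Atp5g3 at 192 CPM (135 CPM), Rpl15 at 174 CPM (100.1 CPM), Rps26 at 106 CPM (84.0 CPM) and Rpl4 at 574 CPM (381 CPM). Kdm6b was at 136 CPM in entinostat day 10 replicate 4, the deepest library, with the next at 88.2 CPM. Gzmf was at 9.78 CPM in entinostat day 10 replicate 2, with the next at 1.43 CPM. Bambi was at 30.9 CPM in entinostat day 17 replicate 4, with the next at 28.2 CPM.

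The day change differed between entinostat and vehicle, by the test of the difference itself, for 21 of the genes named. The values are log2 day changes under entinostat minus those under vehicle. Those of Prf1 (1.78), Rgs16 (1.81), Havcr2 (2.26), Fosl2 (−0.97) and Tnfrsf25 (−2.67) passed in all 26 other settings, and their highest edgeR adjusted p without 1 library was 0.00744, 0.0111, 0.0076, 0.04 and 0.0359. The other 16 lost the call when some single libraries of the 16 were left out, and the number of such libraries and the highest edgeR adjusted p they gave follow. With the highest p without entinostat day 17 replicate 1, Hs3st3b1 (−1.07) lost it without 2 of them (0.0629), Klf3 (−1.21) without 5 (0.0703), Entpd1 (1.82) without 5 (0.0658), H2-Ob (−2.38) without 7 (0.0658), Mad2l1 (1.22) without 8 (0.0732) and Mcm5 (0.85) without 14 (0.119). With the highest p without vehicle day 10 replicate 1, Fam65b (−0.80) lost it without 4 of them (0.0646), Bambi (−1.35) without 6 (0.0684), Tnfrsf9 (0.82) without 9 (0.0775), Atp10d (−0.73) without 12 (0.0854) and Slfn5 (−1.42) without 13 (0.102). With the highest p without vehicle day 10 replicate 3, Arsb (1.49) lost it without 6 of them (0.068), Pgk1 (0.68) without 11 (0.0897), Gzmb (1.71) without 11 (0.0828) and Tyrobp (−1.27) without 14 (0.0791). With the highest p without entinostat day 10 replicate 3, Tpi1 (0.91) lost it without 12 of them (0.0968).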

How the results depend on the processing

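In the day comparison under entinostat, 366 genes rose and 1763 fell. Counts moved by over 1.5 times to 692 higher with DESeq2, 851 higher with limma-voom, 835 higher with a minimum count of 50, 686 higher and 1153 lower with library size alone, 995 higher and 866 lower with cyclic loess, and 1160 lower without the 2 libraries that stood apart. Leaving out 1 library gave 249 to 372 higher and 1348 to 2106 lower, with at least 233 of the risers and 1319 of the fallers still called. For vehicle the counts were 415 and 1103 with DESeq2, 520 and 1463 with limma-voom, 197 lower with library size alone, and 38 and 113 with cyclic loess, and without 1 library 28 to 443 higher and 164 to 1464 lower. For the difference they were 328 and 223 with DESeq2, 114 and 102 with limma-voom, 76 higher with RLE scaling, 62 and 80 with library size alone, 17 and 17 with no filter, 164 and 119 with a minimum count of 50, 75 and 99 with the receptor covariate, 20 and 11 without the 2 libraries, 73 and 73 with cyclic loess, and without 1 library 6 to 60 and 6 to 51. The cause of these moves was not tested.

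The replicate numbers were not taken as pairs, since the labels give them no shared source and the deviations of equal-numbered entinostat libraries correlated at −0.013, 0.198, 0.221 and 0.117, with 1 of 4 not above 0.1. With the number as a replicate block within each treatment, 298 genes rose and 1537 fell under entinostat, 67 rose under vehicle, and the difference passed for 10 higher and 7 lower. Of the 16 named differences that were lost without some single library, 15 were also not called with this block, Hs3st3b1 being the exception.

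Of 109 named genes called under entinostat, 92 kept their call and direction in all 19 settings. Signs turned only for uncalled genes. Tox was at −0.25 with limma-voom, −0.034 with no filter, −0.053 with the replicate block and −0.19 to 0.17 without 1 library. Hdac3 was at 0.00170 with library size alone, 0.00274 with a minimum count of 50 and 0.086 with cyclic loess. Without 1 library Hdac8 was at −0.18 to 0.21 and Ifng at −0.11 to 0.26. Level limits of 8 or 32 CPM gave 439 and 1798, or 269 and 1610. The shallowest library, at 554593 counts, limits genes near 16 CPM most.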

Other observations

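Some genes of type 17 and gamma delta T cells on the marker lists were lower at day 17. Il23r, the receptor of IL-23, had 11.6 to 55.2 CPM at day 10 and 5.77 to 6.64 CPM at day 17, and fell by 2.24 on the log2 scale. Cd163l1, a scavenger receptor of gamma delta T cells, fell by 1.73. Both were chosen with their values known, and both had a day 17 mean under 16 CPM, so that they reached the level limit through day 10. All 3 gamma delta T cell markers at 16 CPM or more fell, with a median of −2.24, and 1 fell with cyclic loess. Under vehicle 1 of the 3 fell, with a median of −1.64, and the difference between the treatments passed for 0 of them. Il17a itself was at 1.80 CPM or less at day 10 and at 2.69 to 3.73 CPM at day 17. Ccr6, a receptor of the same cells, fell by 1.85.

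Lists not described above are given here beside the shares over all 9962 genes, 3.67% higher and 17.7% lower. Of 21 MHC class I presentation genes 3 rose and 2 fell, of 23 cholesterol synthesis genes 0 and 1, and of 25 MYC and ribosome biogenesis genes 1 and 2. Of 10 histone genes none passed in edgeR or without 1 library, and 1 rose with library size alone and with cyclic loess. Among 29 integrin and adhesion genes 1 rose and 7 fell (24.1%), and among 23 p53 target genes 0 rose and 8 fell (34.8%), or 7 of the 22 with both day means at 16 CPM or more. Foxp3, the factor of regulatory T cells, was at 92.6 CPM in entinostat day 17 replicate 1 and at 0.515 to 21.6 CPM in the other 7 libraries.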
